A study of Arabidopsis thaliana with 6 samples.

Results

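Among 33602 annotated loci, 19 had at least 5 CPM (counts per 1000000 counts of the library) in both libraries of the Arabidopsis line called myrBRX and no more than 1 CPM in the 4 libraries of the lines called BRXL2 and BRX. Chloroplast and mitochondrial loci and 1 further locus were left out, so that 33322 loci were eligible and the 19 were 0.057% of them. The levels themselves chose these loci, so the levels are given as a description, and nothing is read from tests of the same contrasts. The other 4 libraries were not empty: 0 of the 19 loci had 0 counts in all of them, 12 had 0 counts in at least 1, and 7 had a count in each. Their summed counts in the other 4 libraries were 6 to 86, with a median of 36, so the set is one of low against measurable levels rather than of presence against absence.

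The 6 libraries came from leaf cells of 3 transgenic lines in the Columbia background, 2 libraries each, described by the series as stomatal lineage ground cells. Per the labels, the genotypes were myrBRXp:myrBRX-YFP, BRXL2p:BRXL2-YFP and BRXp:BRX-YFP, so all plants carried a YFP fusion, and no untransformed control was analysed here. All were true leaves taken at 9 days post germination, from plants held cold for 2 days and then kept at 22 °C with 16 h of light and 8 h of dark. Each library began from about 20000 sorted cells and 20 ng of amplified RNA; the sorting gate, the number of transformants behind a line and whether its libraries came from separate plantings are not given in the sources used here, so the spread between the libraries of a line may be technical.

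Library totals were 39085068 and 41096714 counts for myrBRX, 35981786 and 42113178 for BRXL2, and 25817906 and 35490278 for the libraries labelled BRX. A floor of 3 counts corresponded to 0.0712 to 0.116 CPM, and floors and intervals cover counting error only, since the RNA was amplified and no molecular identifiers were used that would separate copies. The level of BRX goes against a label: it was 27.5 and 67.9 CPM in myrBRX, 29.7 and 28.3 CPM in BRXL2, and lowest in the libraries labelled BRX, at 7.75 and 10.003 CPM. BRXL2 itself was highest under its own label, at 18.3 and 11.7 CPM in myrBRX, 2052 and 1222 CPM in BRXL2, and 191 and 81.4 CPM in the libraries labelled BRX. Directions below thus rest on myrBRX and BRX labels that the BRX level did not verify. The share of organelle counts was 0.558% and 1.34% in myrBRX, 1.71% and 2.32% in BRXL2, and 5.34% and 3.77% in the libraries labelled BRX. Its part in the results was not tested. The top locus of every library, AT1G79245, held 6.89% and 6.13% of counts in myrBRX and 4.82% and 8.95% in BRXL2. In the libraries labelled BRX it held 9.81% and 19.7%. CPM used totals that include these counts, and a scaling without them is given below. In sorted bulk samples, fewer cells of a type and less RNA per cell cannot be told apart.

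Stomatal lineage ground cells are the larger daughters of asymmetric divisions in the young epidermis, and most later become pavement cells or divide again. Many of the loci described here are of a few broad kinds, beside enzymes. Membrane importers bring nitrogen, sulfur and other solutes into cells, transcription factors of the MYB, NAC and AP2/ERF families act in stress, ageing and hormone responses, and secreted or membrane-bound proteins signal or shape the cell surface.

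By role, 5 of the 19 loci encode transport proteins, 4 transcription factors, 4 signalling or cell surface proteins, 4 enzymes, and 2 fall outside these groups. They lay on all nuclear chromosomes, with 6 on chromosome 1, 1 on chromosome 2, 5 on chromosome 3, 2 on chromosome 4 and 5 on chromosome 5, and none was the direct neighbour of another. The summed level of the 19 was 199 and 411 CPM in myrBRX, 7.06 and 5.44 CPM in BRXL2, and 3.52 and 5.58 CPM in the libraries labelled BRX. The median level was 7.88 and 12.04 CPM in myrBRX, 0.334 and 0.095 CPM in BRXL2, and 0.0775 and 0.113 CPM in the libraries labelled BRX.

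**Figure D1:**
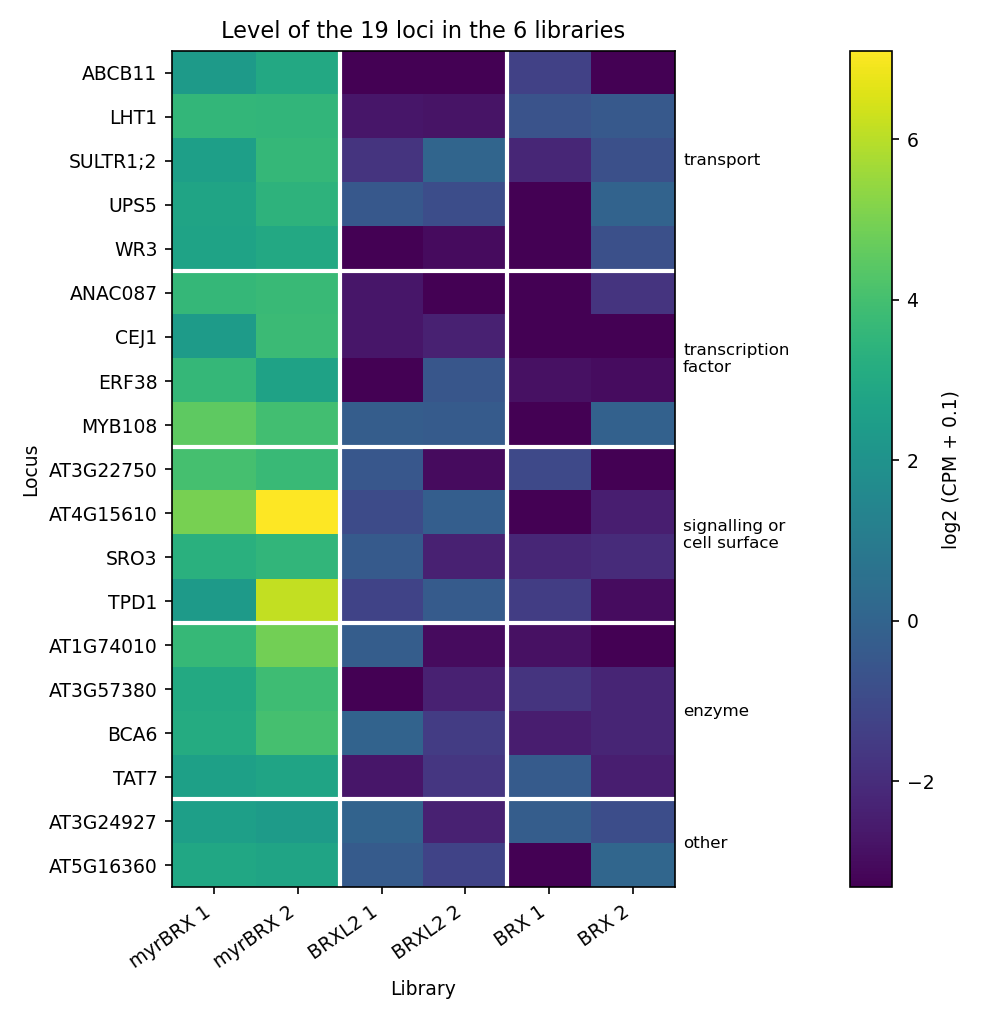
Level of each of the 19 loci (rows, grouped by role) in the 6 libraries (columns), as log2 of CPM plus 0.1. Both myrBRX columns are bright in every row by the choice of the loci, with AT4G15610 and TPD1 brightest in myrBRX 2; the remaining dark columns hold scattered low values in all 4 libraries.

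The transport genes form the group with most members. LHT1 (AT5G40780) encodes an importer of amino acids at the plasma membrane, and had 11.8 and 11.6 CPM in the myrBRX libraries, 0.0556 and 0.0475 CPM in BRXL2, and 0.542 and 0.648 CPM in the libraries labelled BRX. SULTR1;2 (AT1G78000), which encodes a high-affinity sulfate transporter best known for uptake in roots, had 5.73 and 12.04 CPM in myrBRX, 0.195 and 0.95 CPM in BRXL2, and 0.116 and 0.479 CPM in the libraries labelled BRX. WR3 (AT5G50200) encodes the partner protein that NRT2 nitrate transporters need, and had 6.47 and 7.71 CPM in myrBRX, 0 and 0.0237 CPM in BRXL2, and 0 and 0.479 CPM in the libraries labelled BRX. These 3 genes act in the import of amino acids, sulfate and nitrate, WR3 as a partner protein rather than an importer. LHT1 was the most even of the 19 between the myrBRX libraries, with a ratio of myrBRX 2 over myrBRX 1 of 0.988. UPS5 (AT1G26440), a ureide permease of a family that carries allantoin and uracil, had 6.65 and 10.7 CPM in myrBRX, 0.639 and 0.451 CPM in BRXL2, and 0 and 0.902 CPM in the libraries labelled BRX. ABCB11 (AT1G02520) belongs to the ATP-driven ABCB transporters, several of which move auxin, and had 5.09 and 7.66 CPM in myrBRX, 0 and 0 CPM in BRXL2, and 0.31 and 0 CPM in the libraries labelled BRX. ABCB11 was thus at 0 counts in 3 of the other 4 libraries, more than any other member, while UPS5 and SULTR1;2 came within 0.1 CPM of the upper limit in at least 1.

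Transcription factors included members of 3 families. ANAC087 (AT5G18270), a NAC factor that takes part in ageing and in programmed cell death of the root cap, had 12.2 and 13.1 CPM in myrBRX, 0.0556 and 0 CPM in BRXL2, and 0 and 0.197 CPM in the libraries labelled BRX. MYB108 (AT3G06490), also called BOS1, has been linked to cell death, to infection by Botrytis and to stamen maturation. MYB108 had 22.7 and 15.4 CPM in myrBRX, 0.75 and 0.689 CPM in BRXL2, and 0 and 0.845 CPM in the libraries labelled BRX. Of the 4 factors, ANAC087 stood farthest from the other lines. Its lower myrBRX level was 62.0 times the highest level outside myrBRX, the widest gap of the 19. CEJ1 (AT3G50260), an AP2/ERF protein of the DREB subfamily that carries a repression motif, had 5.22 and 13.5 CPM in myrBRX, 0.0556 and 0.095 CPM in BRXL2, and 0 and 0 CPM in the libraries labelled BRX. ERF38 (AT2G35700), of the same subfamily, had 12.1 and 6.38 CPM in myrBRX, 0 and 0.594 CPM in BRXL2, and 0.0387 and 0.0282 CPM in the libraries labelled BRX. The pair of DREB members ran in opposite order within the myrBRX line, with CEJ1 higher in myrBRX 2 and ERF38 higher in myrBRX 1.

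Signalling and cell surface genes included the loci with most counts. AT4G15610 encodes a CASP-like protein, a membrane protein of the family named after the scaffold of the Casparian strip, and had 31.4 and 137 CPM in myrBRX, 0.417 and 0.76 CPM in BRXL2, and 0 and 0.0845 CPM in the libraries labelled BRX. TPD1 (AT4G24972) encodes a small secreted ligand known for setting the fate of the tapetum in anthers, and had 5.09 and 71.6 CPM in myrBRX, 0.334 and 0.689 CPM in BRXL2, and 0.271 and 0.0282 CPM in the libraries labelled BRX. Both were far higher in myrBRX 2 than in myrBRX 1, by 4.38-fold for AT4G15610 and 14.1-fold for TPD1, so their level in the line rests mostly on 1 library. SRO3 (AT1G70440) encodes a relative of RCD1, a stress-response protein that binds transcription factors, and had 9.85 and 11.6 CPM in myrBRX, 0.667 and 0.095 CPM in BRXL2, and 0.116 and 0.141 CPM in the libraries labelled BRX. AT3G22750, annotated as a protein kinase, had 16.2 and 13.3 CPM in myrBRX, 0.611 and 0.0237 CPM in BRXL2, and 0.387 and 0 CPM in the libraries labelled BRX. These last loci were close to equal between the myrBRX libraries.

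Of the enzymes, AT1G74010, of the strictosidine synthase-like family, had 12.7 and 29.8 CPM in myrBRX, 0.75 and 0.0237 CPM in BRXL2, and 0.0387 and 0 CPM in the libraries labelled BRX. BCA6 (AT1G58180), a beta carbonic anhydrase of mitochondria, had 8.42 and 16.3 CPM in myrBRX, 0.889 and 0.261 CPM in BRXL2, and 0.0775 and 0.113 CPM in the libraries labelled BRX. Both were higher in myrBRX 2 than in myrBRX 1, and outside myrBRX both were highest in BRXL2 1. AT3G57380, a glycosyltransferase, had 7.88 and 14.5 CPM in myrBRX, 0 and 0.095 CPM in BRXL2, and 0.194 and 0.113 CPM in the libraries labelled BRX. TAT7 (AT5G53970), a tyrosine aminotransferase that feeds the synthesis of tocopherol, had 5.96 and 6.72 CPM in myrBRX, 0.0556 and 0.214 CPM in BRXL2, and 0.697 and 0.0845 CPM in the libraries labelled BRX. TAT7 was nearly equal between the myrBRX libraries. AT5G16360, an NC domain protein, had 7.39 and 6.62 CPM in myrBRX, 0.695 and 0.332 CPM in BRXL2, and 0 and 0.986 CPM in the libraries labelled BRX. AT3G24927, a transcribed pseudogene, had 5.88 and 5.23 CPM in myrBRX, 0.889 and 0.095 CPM in BRXL2, and 0.736 and 0.451 CPM in the libraries labelled BRX. AT3G24927 had the narrowest gap of the set, at 5.88 times between its lower myrBRX level and its highest level elsewhere.

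Pooling the counts of each side and dividing by the pooled totals gave ratios of myrBRX over the other 4 libraries between 10.9 and 239, with a median of 47.3. The highest belonged to AT4G15610, at 239 (95% exact counting interval 181 to 322). CEJ1 followed at 220 (100.7 to 602) and ANAC087 at 196 (103 to 431), both on fewer than 10 counts outside myrBRX. The order rests on myrBRX 2: with myrBRX 1 alone the ratio was 87.5 for AT4G15610, 121 for CEJ1 and 189 for ANAC087. The lowest was that of AT3G24927, at 10.9 (8.47 to 14.2). These ratios describe the libraries as sequenced and carry no spread between samples.

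**Figure D2:**
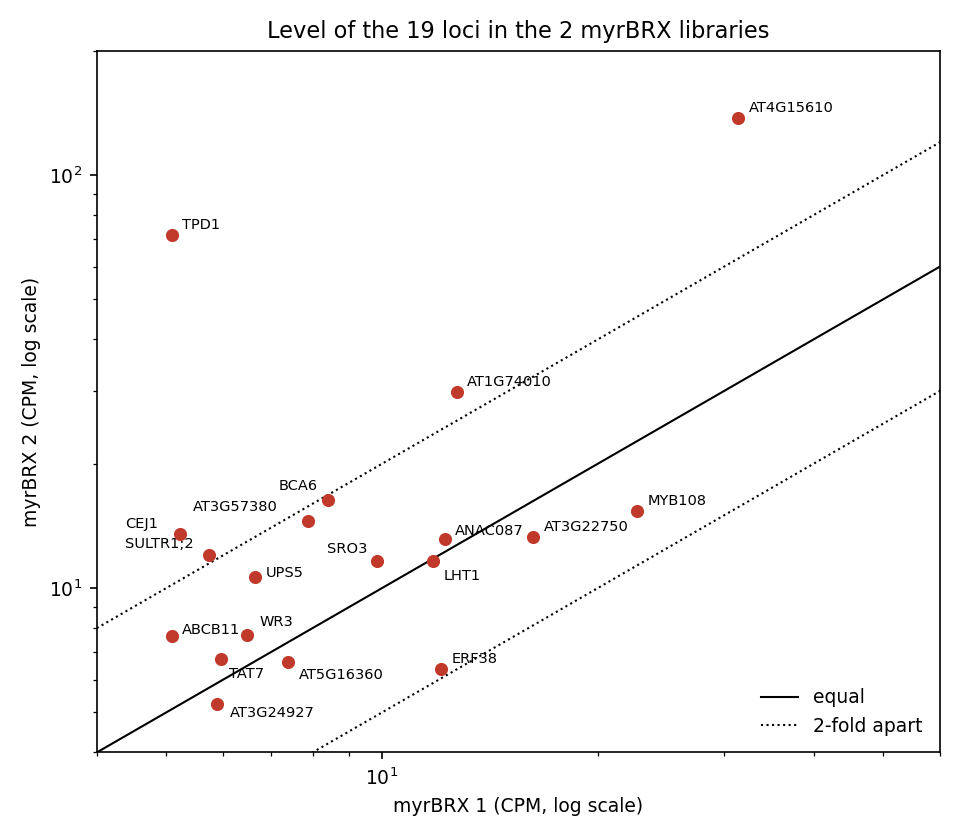
Level of the 19 loci in myrBRX 1 (horizontal) and myrBRX 2 (vertical), both in CPM on log scales; the solid line marks equal levels and the dotted lines a 2-fold difference. Most points lie within the dotted lines, and TPD1 and AT4G15610 lie far above them, toward myrBRX 2.

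Within the myrBRX line, 13 of the 19 were higher in myrBRX 2 than in myrBRX 1. This was also the direction of 61.5% of the 8120 loci with at least 5 CPM in both myrBRX libraries. The median ratio of myrBRX 2 over myrBRX 1 was 1.19 over the 19 and 1.16 over the 8120. Of the 19, 9 lay within 1.5-fold and 5 lay more than 2-fold apart, a distance that 24.1% of the 8120 loci also passed. Those 5 were TPD1, AT4G15610, CEJ1 at 2.59, AT1G74010 at 2.34 and SULTR1;2 at 2.102, each higher in myrBRX 2. The low counts outside myrBRX had no single source: the highest of the other 4 libraries was BRXL2 1 for 5 loci, BRXL2 2 for 5, BRX 1 for 3 and BRX 2 for 6. In 12 of the 19 the mean CPM of the BRXL2 libraries was above that of the libraries labelled BRX.

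Scaled by transcript length, so that genes can be set against each other, the 19 had 1.48 to 49.5 CPM per kilobase on average in myrBRX, with a median of 6.89. The median of the 8120 loci with at least 5 CPM in both myrBRX libraries was 12.6 CPM per kilobase. On this scale the CASP-like gene AT4G15610 led with 49.5, followed by TPD1 with 28.6, the strictosidine synthase-like AT1G74010 with 14.1 and MYB108 with 10.2, and the long ABCB11 was lowest. The transcripts were 807 to 4310 bases long, with a median of 1665 against 2018 bases over the 8120 loci.

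**Figure D3:**
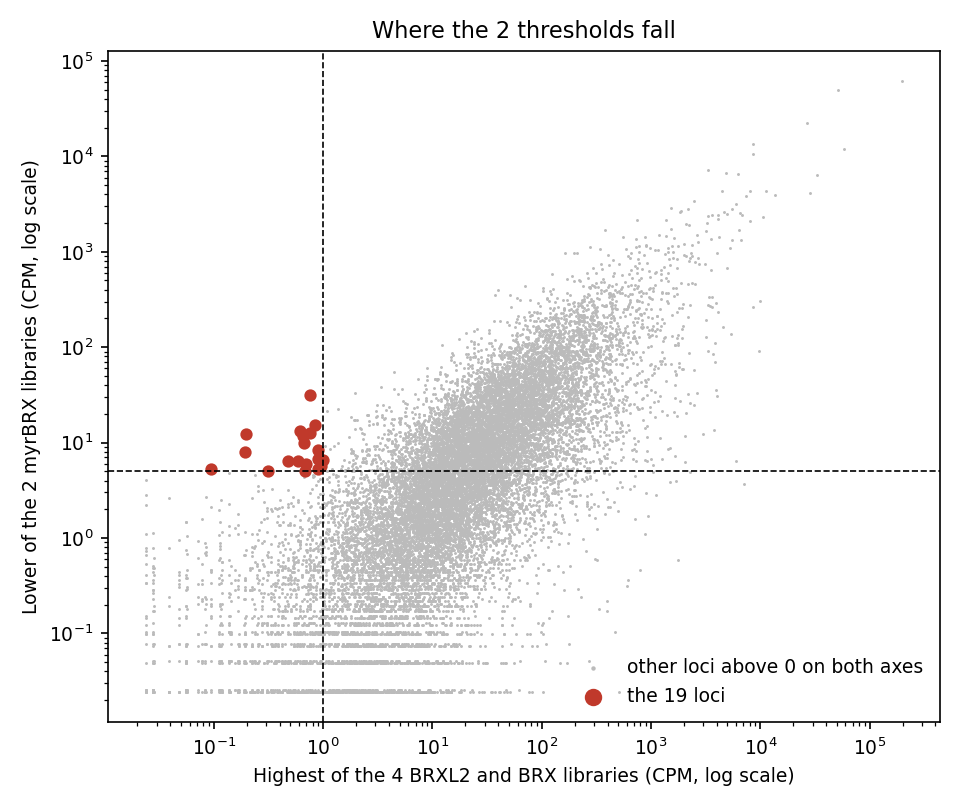
Each point is a locus above 0 on both axes: its highest level in the 4 BRXL2 and BRX libraries (horizontal, CPM, log scale) and its lower level in the 2 myrBRX libraries (vertical, CPM, log scale), with the limits of 1 and 5 CPM as dashed lines. The 19 loci fill the upper left corner, several of them close to a limit, and run on into the cloud of other loci without a break. ANAC087 lies far from both limits, at 0.197 CPM (horizontal) and 12.2 CPM (vertical).

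The limits cut through a continuum of values. Just inside the lower limit for myrBRX were ABCB11 and TPD1, both with 5.09 CPM in myrBRX 1, and CEJ1 with 5.22. Just outside it were the lipase gene MPL1 at 4.81 CPM, the hydrolase gene AT3G24420 at 4.71 and the leucine-rich repeat gene AT1G33612 at 4.57. Just inside the upper limit for the other lines were AT5G16360 at 0.986 CPM, SULTR1;2 at 0.95 and UPS5 at 0.902. Just outside it were AT4G15120 and AT3G49210, both at 1.04 CPM, and AT4G23680 at 1.08, although AT4G23680 reached 21.5 and 46.1 CPM in myrBRX. The same rule turned round found 47 loci for BRXL2, 0.141% of those eligible, and 4 for the libraries labelled BRX, 0.012%. Of all loci with a count, 10.8% had both myrBRX libraries above the other 4, and of the 8120 with at least 5 CPM in both myrBRX libraries 0.234% met the rule.

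In the edgeR quasi-likelihood fit over 18174 loci, all 19 were tested, and 0 passed a Benjamini-Hochberg adjusted p under 0.05 for myrBRX against the libraries labelled BRX or against BRXL2. The share of all loci called higher was 0% in each comparison, and the 0.0495% called against BRXL2 in either direction were all lower. Of all loci, 7.08% and 5.47% were higher at an unadjusted p under 0.05. At that unadjusted level 17 of the 19 were higher against the libraries labelled BRX and 18 against BRXL2, while DESeq2 called 17 in each, where it called 4.07% and 2.69% of all loci higher. The rule used these same contrasts, the 2 comparisons share the myrBRX libraries, and a locus this low elsewhere could pass the low-count filter only through myrBRX, so nothing is read from these counts. Median fitted log2 fold changes were 6.41 (3.49 to 11.56) against the libraries labelled BRX and 6.04 (3.97 to 11.02) against BRXL2, beside medians of -0.03 and -0.15 over all loci tested. The spread between libraries of a line behind this fit was wide, with a biological coefficient of variation of 0.884 on 3 residual degrees of freedom.

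By their annotation, 5 of the 19, or 26.3%, fell in the transporter class, which held 2.95% of eligible loci and 3.56% of the 8120 loci with at least 5 CPM in both myrBRX libraries. With TMM library sizes, under which UPS5 and SULTR1;2 leave the set, the share was 12% of 25 loci, and with a limit of 10 CPM in myrBRX it was 16.7% of 6. Of the 47 loci that the same rule gave for BRXL2, 0 were in that class. Other transporter genes, which the rule did not choose, lay in both directions: of 687 tested, edgeR called 0 in either comparison, with 53 higher and 45 lower at an unadjusted p under 0.05 against the libraries labelled BRX (14.3%, beside 14.2% of all loci) and 48 higher and 37 lower against BRXL2 (12.4%, as over all loci). DESeq2 called 31 higher and 23 lower in the first and 18 higher and 20 lower in the second, where it called 4.07% and 2.69% of all loci higher. The median log2 fold change of these transporters was 0.13 against the libraries labelled BRX and 0.04 against BRXL2.

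Transporters were the only class with more than 1 member. Together with MYB, NAC and AP2/ERF factors and hormone response, where the annotation of CEJ1 placed it, 1014 other genes were tested; the kinase and transferase classes, also with 1 member each, were not counted. For myrBRX against the libraries labelled BRX, edgeR called 0; at an unadjusted p under 0.05, 86 were higher and 67 lower, or 15.1% beside 14.2% of all loci, and DESeq2 called 55 higher and 41 lower. For myrBRX against BRXL2, edgeR called 1, the NAC factor NAC096, which was lower; at the unadjusted level 77 were higher and 64 lower, or 13.9% beside 12.4%, and DESeq2 called 42 higher and 38 lower.

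Closer relatives were compared as families drawn up once the 19 were known. These held 285 other loci, of which 214 had a count and 45 (21.03%, beside 10.8% of all loci with a count) had both myrBRX libraries above the other 4. None of the 156 tested was called higher by edgeR in either comparison, and 1 was called lower against BRXL2. At an unadjusted p under 0.05, 20 were higher and 5 lower against the libraries labelled BRX. Against BRXL2, 25 were higher and 11 lower. The shares of all loci higher at that level were 7.08% and 5.47%. Relatives with both myrBRX libraries below the other 4 were not counted, but included ABCB19 and DDF1. ABCB19 had 17.9 and 27.4 CPM in myrBRX and 144 and 89.6 CPM in BRXL2. In the libraries labelled BRX it had 186 and 98.9 CPM. Some families had relatives at measurable levels in all lines. RCD1, the relative of SRO3, had 502 and 620 CPM in myrBRX, 178 and 194 CPM in BRXL2, and 68.1 and 219 CPM in the libraries labelled BRX. BCA4, the relative of BCA6, had 105 and 185 CPM in myrBRX, 29.6 and 50.6 CPM in BRXL2, and 31.2 and 65.5 CPM in the libraries labelled BRX. Both had their myrBRX libraries above the other 4 without being near 0 elsewhere, as had SULTR4;1 among the transporters. LHT2 did not: it had 4.50 and 18.8 CPM in myrBRX, 8.23 and 2.92 CPM in BRXL2, and 0 and 4.48 CPM in the libraries labelled BRX.

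The tandem neighbours of 2 members followed them in part. AT1G74010 lies between SS3 and SS2, strictosidine synthase-like genes on the same strand. SS3 had 3.17 and 11.9 CPM in myrBRX, 0.111 and 0 CPM in BRXL2, and 0 and 1.97 CPM in the libraries labelled BRX. SS2 had 19.2 and 37.5 CPM in myrBRX, 0.334 and 1.45 CPM in BRXL2, and 1.63 and 3.10 CPM in the libraries labelled BRX. All 3 were highest in myrBRX 2, and in the family 6 of 16 other loci had both myrBRX libraries above the rest, beside 10.8% of all loci with a count. Beside the CASP-like AT4G15610 lies AT4G15620, with 13.2 and 41.5 CPM in myrBRX, 2.75 and 10.8 CPM in BRXL2, and 2.48 and 1.30 CPM in the libraries labelled BRX. AT4G15630, the next locus in the row, had 148 and 530 CPM in myrBRX, 33.4 and 35.3 CPM in BRXL2, and 114 and 196 CPM in the libraries labelled BRX, so its groups overlapped. How reads shared between such close copies were counted is not given in the sources used here, and the split of counts within each row is therefore uncertain. Of the 38 loci that flank the 19, 27 had a count and 17 stayed at or below 1 CPM in every library. Both myrBRX libraries were above the other 4 in 6 of the 27 (22.2%, beside the same 10.8%). These 6 include SS3, SS2 and AT4G15620, the tandem relatives given above, whose split of counts is uncertain. The remaining 3 were ACX5, AGL18 and AAE5.

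**Figure D4:**
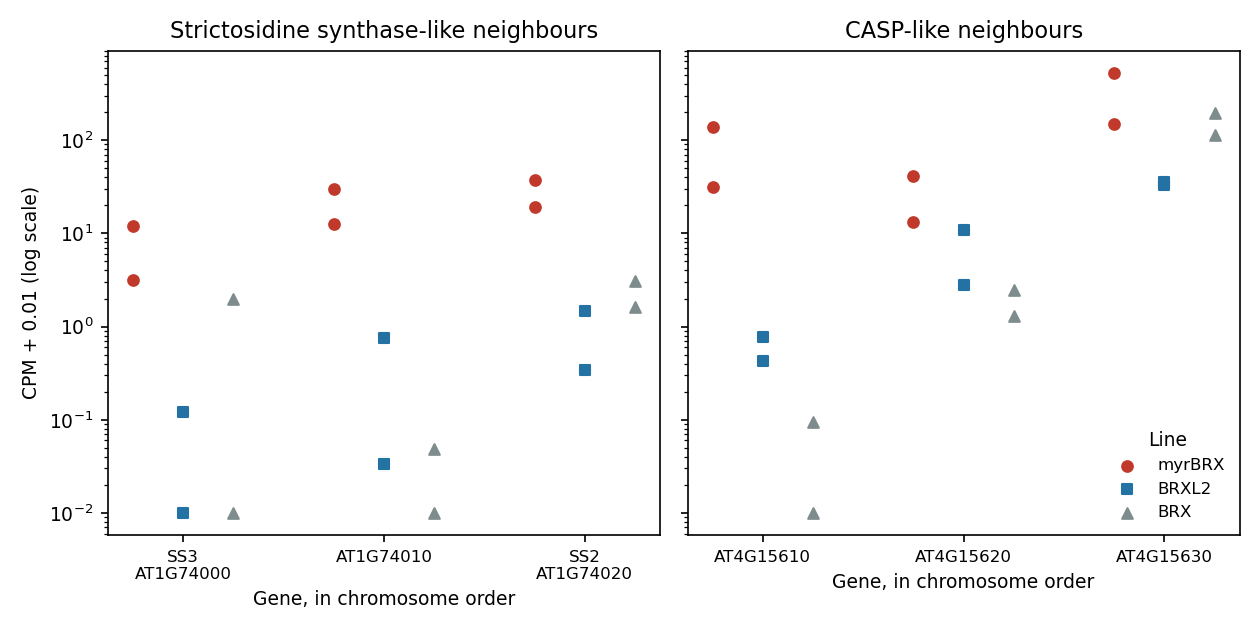
Level (CPM plus 0.01, log scale) of the strictosidine synthase-like genes SS3, AT1G74010 and SS2 (left) and the CASP-like genes AT4G15610, AT4G15620 and AT4G15630 (right), in chromosome order. Each point is a library; the myrBRX points lie above the others at each gene except AT4G15630, where they overlap with those of the libraries labelled BRX.

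Among the 95 other NAC loci, 64 had a count and 15 of these had both myrBRX libraries above the other 4, beside 10.8% of all loci with a count, and 45 stayed at or below 1 CPM everywhere. NAC3 (AT3G15500), a factor of abscisic acid and ageing responses, had 349 and 407 CPM in myrBRX, 27.9 and 36.3 CPM in BRXL2, and 10.1 and 37.7 CPM in the libraries labelled BRX. RD26, a NAC factor of drought response, had 97.9 and 121 CPM in myrBRX, 16.1 and 9.43 CPM in BRXL2, and 5.11 and 24.1 CPM in the libraries labelled BRX. Both kept their myrBRX libraries apart from the rest. NAC3 did not pass the edgeR quasi-likelihood test, with a log2 fold change of 4.02 against the libraries labelled BRX (adjusted p = 0.202) and 3.76 against BRXL2 (adjusted p = 0.221). Among the 53 other DREB loci, 45 had a count and 9 of these had both myrBRX libraries above the rest, beside the same 10.8%. RAP2.9 had 167 and 68.5 CPM in myrBRX, 12.8 and 15.2 CPM in BRXL2, and 17.7 and 14.1 CPM in the libraries labelled BRX.

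No member belonged to any of 20 marker lists of cell types and responses. Root hair and root epidermis genes, including NRT2.1, the nitrate transporter served by WR3, summed to between 0 and 0.0282 CPM in every library. The endodermal genes CASP1 and MYB36 were at 0 counts in all 6, while the list with SCR, which is also active in leaves, summed to 14.6 and 10.6 CPM in myrBRX, 132 and 11.5 CPM in BRXL2, and 16.1 and 12.8 CPM in the libraries labelled BRX. Genes of flower and pollen summed to 3.48 and 0.633 CPM in myrBRX, 1.33 and 0.0712 CPM in BRXL2, and 2.52 and 1.63 CPM in the libraries labelled BRX. Of the 9 phloem markers, 0 had both myrBRX libraries above the rest; they summed to 4.38 and 8.54 CPM in myrBRX, 1022 and 314 CPM in BRXL2, and 17.62 and 4.28 CPM in the libraries labelled BRX. APL, SEOa and SEOb, genes of phloem identity and sieve elements, were called lower in myrBRX than in BRXL2 by edgeR (adjusted p = 0.0292, 0.0315 and 0.0472), and the part of this difference in the results was not tested. Stomatal lineage markers summed to 349 and 228 CPM in myrBRX, 952 and 497 CPM in BRXL2, and 1764 and 487 CPM in the libraries labelled BRX. Of the senescence genes, SAG12 was at 0 counts everywhere. SEN1 and NAC092, 2 of the 6, had both myrBRX libraries above the rest, beside 10.8% of all loci with a count. NAC092 did so at low levels, with 1.13 and 0.341 CPM in myrBRX.

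Of the detoxification genes, 8 of 10 had both myrBRX libraries above the other 4, beside 10.8% of loci with a count. The list was chosen with earlier results of these data known, and the 10.8% covers loci at any level. Nothing is therefore read from the difference between these shares. Summed, these genes had 10694 and 22399 CPM in myrBRX and 3179 and 8790 CPM in BRXL2. In the libraries labelled BRX the sum was 2021 and 5422 CPM. The glutathione transferase gene GSTU24 had 55.3 and 144 CPM in myrBRX, 1.56 and 1.09 CPM in BRXL2, and 2.79 and 4.45 CPM in the libraries labelled BRX. None of the 10 passed the edgeR test in either comparison, and the part of such a response, or of cell handling, in the levels of the 19 was not tested.

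**Figure D5:**
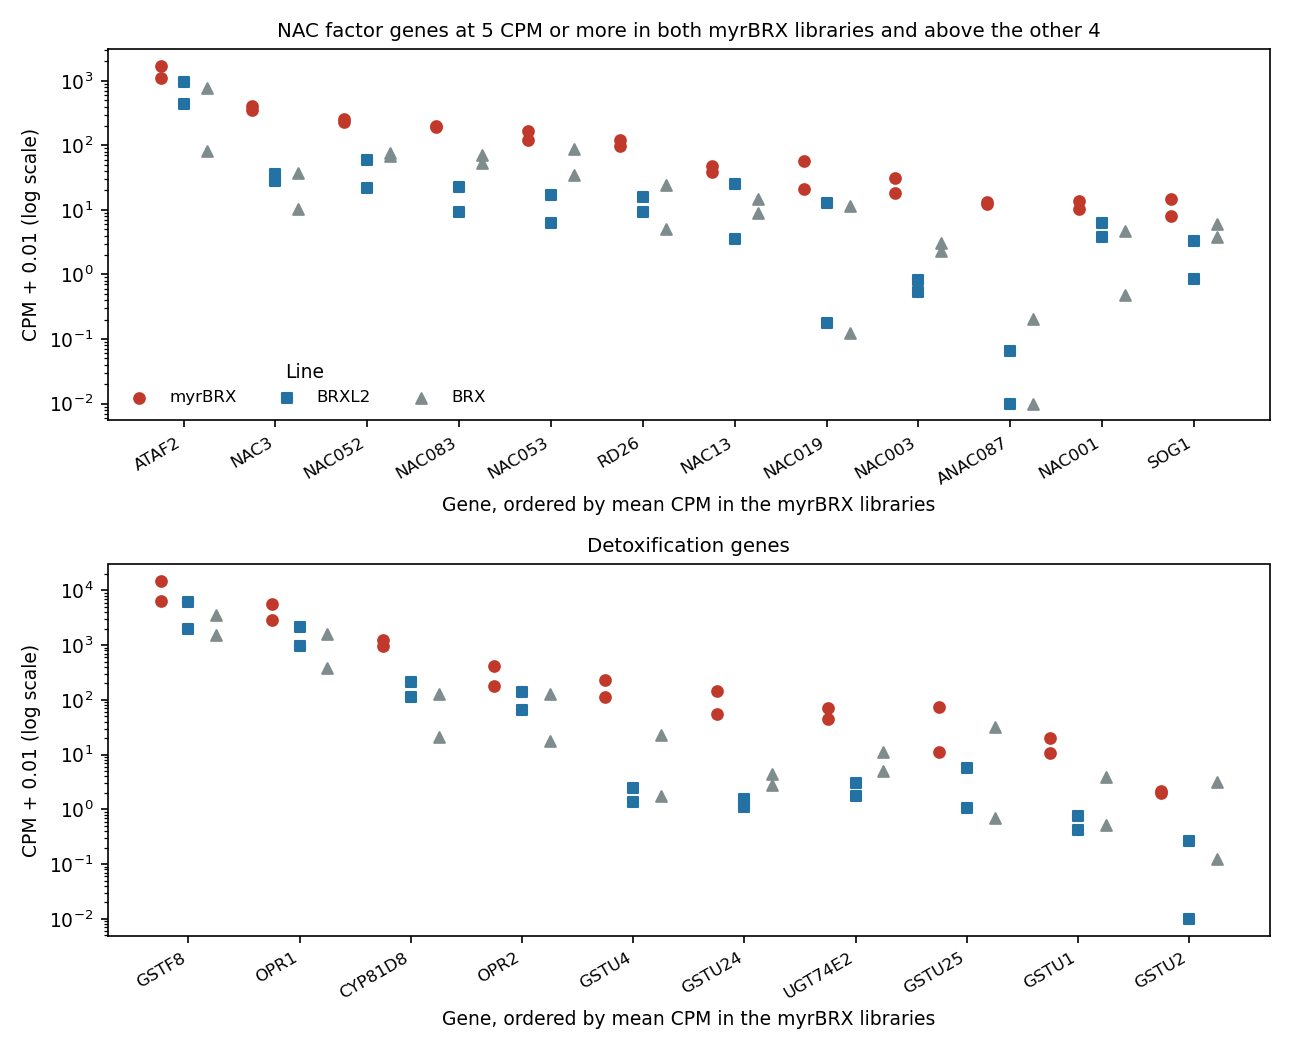
Level (CPM plus 0.01, log scale) of the NAC factor genes with at least 5 CPM in both myrBRX libraries and both above the other 4 (upper panel) and of the detoxification genes (lower panel), ordered by their myrBRX mean. Each point is a library; ANAC087 has the lowest BRXL2 and BRX points of the upper panel, and GSTU25 and GSTU2 are the genes of the lower panel whose groups overlap.

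Promoters, taken as 250 bases before to 50 bases after the annotated start in the RefSeq TAIR10.1 annotation, were searched on both strands for short motifs, as a description. The W-box core TTGAC, the site of WRKY factors, was in 12 of the 19 promoters (63.2%), beside 50.01% of all 32833. The TATA box, searched as TATAAA, was in 11 (57.9%), beside 50.05% of all. The as-1 core TGACG, which can overlap the W-box core, was in 21.1% of the 19 and 22.8% of all. Of the abscisic acid sites, the ABRE core ACGTG was in 21.1% of the 19 and 25.4% of all, and the G-box CACGTG, which contains that core, was in 0 of the 19 and 6.90% of all. The core read by DREB factors, CCGAC, was in 15.8% of the 19 and 15.6% of all. The mitosis-specific activator core AACGG was in 15.8% of the 19 and 24.8% of all, and the heat shock element pair GAANNTTC was in 15.8% of the 19 and 11.3% of all. Pairs of Dof sites, searched as AAAGNAAAG, were in 10.5% of the 19 and 7.02% of all, and the evening element AAATATCT was in 5.26% of the 19 and 5.28% of all. The GCC box GCCGCC was in 0 of the 19 windows and 2.72% of all, the auxin response element TGTCTC was in 0 of the 19 and 14.04% of all, and the TCP site GGNCCC was in 0 of the 19 and 8.61% of all.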

How the data were processed

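The deposited values are whole-number counts per locus, 1 table per library, and the authors did not normalise them, as whole numbers and unequal totals show. The aligner was Bowtie2 and the build TAIR10, per the submitters' processing notes. Which counting program was used, its use of strand, its treatment of reads with several alignments and the annotation release are not given in the sources used here, so close copies and antisense partners may share counts, and a construct is counted with its endogenous gene. Libraries of the same line differed beyond counting noise (chi-square per gene 606 to 904).

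CPM used the plain library totals. Lines were compared in edgeR 4.0.16 (R 4.3.3): filterByExpr at a minimum of 10 counts, TMM factors, glmQLFit and glmQLFTest (two-sided) with 1 coefficient per line over 6 libraries, adjusted by Benjamini-Hochberg over 18174 loci at 0.05. DESeq2 1.42.0 was an alternative. Pooled ratios have exact 95% counting intervals (scipy 1.17.1). Of 33602 loci, 32835 matched a RefSeq TAIR10.1 annotation, used for names, lengths, neighbours and promoters; the builds differ, so no coordinates are given.

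The rule, the members and all lists were chosen with earlier results of these data known. Every member could be named, with marker genes only where their list was counted; other loci were chosen after their values were seen. Families were gathered after the members were known. Of 163 listed markers, 159 matched their locus. For lists not counted above, the number with both myrBRX libraries above the other 4 was 2 of 11 for guard cell genes. TGG2, of that list, was called lower against BRXL2. The number was 1 of 7 for epidermis, 2 of 5 for sulfur starvation and 2 of 5 for phosphate starvation. For salicylate and camalexin defence it was 1 of 11. It was 0 for mesophyll, xylem, trichome, seed, meristem, jasmonate, low oxygen and heat shock genes. These numbers stand beside 10.8% of all loci with a count. Some rest on low levels: in myrBRX 2, CYP71A12 had 0.0487 CPM, SDI1 0.122 CPM and HT1 0.754 CPM. Alternatives changed the limits, the scaling, the filter, the tool, the libraries and the pairing.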

Additional observations from a re-analysis of the deposited data

How the results depend on the processing

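The number of loci that met the rule followed its limits, and the cause of each shift below was otherwise not tested. It was 6 at 10 CPM in myrBRX and 73 at 2 CPM, 5 at no more than 0.5 CPM in the other lines, 56 at 2 CPM and 0 where 0 counts were asked of all 4, so that class and motif shares could not be computed there. Leaving out a library can only loosen the rule, so the 19 had to stay and the number could not fall. It was 25 to 71 with 1 library left out. Without both libraries labelled BRX it was 62, and without both BRXL2 libraries 71, alternatives chosen after seeing the data. With TMM or RLE sizes it was 25 and 27, each with 16 of the 19, and 17 without organelle loci and the top locus, with 15. UPS5, SULTR1;2 and AT5G16360 dropped out under each of these, and MYB108 in the last. Member means changed by 1.07-fold to 1.14-fold.

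Calls depended on the tool and filter. Against the libraries labelled BRX, 0 loci were called in the fit reported, 1438 by DESeq2 and 724 without a filter; leaving out 1 library gave 1 to 327. Members called were 0, 17 and 11, with 0 to 4 on leaving out 1 library, and other class genes 0, 96 and 43, with 0 to 27. Against BRXL2, 9 loci were called in the fit reported, 1164 by DESeq2, 657 without a filter, 22 on the 4 compared libraries, 5 with RLE or upper-quartile factors and 0 at a minimum of 30 counts (2117 at an unadjusted p under 0.05); leaving out 1 library gave 24 to 119. Members called were 0, 17 by DESeq2 and 11 without a filter, with 0 to 3, and other class genes 1, 80 by DESeq2, 41 without a filter, 3 on the compared libraries and 0 with RLE or upper-quartile factors or at 30 counts, with 0 to 7.

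Same-numbered libraries deviated together at r = 0.127 (BRXL2 and BRX), 0.0581 (myrBRX and BRX) and 0.121 (myrBRX and BRXL2), so not every pair passed 0.1 and the samples share only a number. With the replicate block, calls were 29 loci, 2 members and 2 other class genes against the libraries labelled BRX, and 42, 1 and 2 against BRXL2.

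On the gene strand alone, the W-box core and the TATA box were each in 31.6% of the 19 promoters, beside 29.01% and 35.1% of all, and the mitosis-specific activator core in 5.26%, beside 13.3%. Among the 6 loci at 10 CPM, the as-1 core, DRE core, evening element and heat shock element were in 0%. The count of 8 detoxification genes was 8 under TMM and RLE sizes and 8 to 9 with 1 library left out. That of 45 relatives was 45 to 67. Leaving out a library cannot lower either count. Summed counts of 6 to 86 outside myrBRX limit the precision of the BRXL2 and BRX levels of the 19.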

Other observations

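AT2G39518, a second CASP-like gene, did not meet the rule, with 2.84 and 5.79 CPM in myrBRX, 0 and 0.0237 CPM in BRXL2, and 0 and 0 CPM in the libraries labelled BRX. NAM, a NAC factor gene, had 2.61 and 4.19 CPM in myrBRX, 0.0278 and 0 CPM in BRXL2, and 0.0387 and 0 CPM in the libraries labelled BRX. Both share the pattern of the 19 at a lower level. Among strictosidine synthase-like genes away from the AT1G74010 row, AT3G57020 had 104 and 73.7 CPM in myrBRX, 14.7 and 5.56 CPM in BRXL2, and 5.81 and 3.21 CPM in the libraries labelled BRX. AT3G57020 was higher in myrBRX 1, the reverse of the AT1G74010 row. AAE5, the gene next to AT5G16360, encodes an acyl activating enzyme and had 94.2 and 70.2 CPM in myrBRX, 15.6 and 6.70 CPM in BRXL2, and 4.53 and 15.6 CPM in the libraries labelled BRX.

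Of the sulfur starvation genes, SDI1 had 17.58 and 0.122 CPM in myrBRX, 0.0278 and 0.0475 CPM in BRXL2, and 0 and 0.0845 CPM in the libraries labelled BRX. SDI1 was high in myrBRX 1 only, and the part of a sulfur response in the level of SULTR1;2 was not tested. LSU1 had 5.27 and 8.27 CPM in myrBRX, 0.0556 and 26.2 CPM in BRXL2, and 0 and 0 CPM in the libraries labelled BRX. AT5G26220 had 9.70 and 10.7 CPM in myrBRX, 8.42 and 0.902 CPM in BRXL2, and 3.18 and 1.97 CPM in the libraries labelled BRX. APR3 had 6427 and 3831 CPM in myrBRX, 1130 and 7431 CPM in BRXL2, and 332 and 1304 CPM in the libraries labelled BRX. BGLU28 had 1.25 and 0.195 CPM in myrBRX, 0 and 0 CPM in BRXL2, and 0.387 and 8.68 CPM in the libraries labelled BRX. The groups of LSU1, APR3 and BGLU28 overlapped.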
